A study of Rattus norvegicus with 300 samples.

Results

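RNA was compared between 5 Control and 5 Maltodextrin libraries of punched ventral dentate gyrus, which the labels write as venDG. These 10 libraries were chosen by their labelled region and treatment, out of 300 libraries in the study. Water alone was given to Control rats, and maltodextrin, a starch-derived polysaccharide, was dissolved at 10 g/L for Maltodextrin rats. Among the other venDG groups, also of 5 libraries each, the daily dose per kg was 13 mg in FT, 15 mg in Bupropion and 7.5 mg in Desipramine. The Probiotics group has a dose that the labels write in forms that disagree. All rats were male Long Evans animals, 60 days old, treated for 3 weeks through the drinking water, and none carried a described allele. Frozen punches of a region were pooled before extraction, and the number of rats behind a pool was not stated in the labels. Test results therefore measure the spread between these libraries, which may be technical. The labels give no batch, so a batch that followed treatment cannot be told apart from it.

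The dentate gyrus is the input stage of the hippocampus, and its ventral end is studied for its part in anxiety and mood. Healthy brain tissue holds microglia as its resident immune cells, macrophages along vessels and in the choroid plexus, and few lymphocytes. MHC class II molecules show peptides from engulfed material to helper T cells. Cd74, the invariant chain, keeps class II molecules from loading peptides too early, and Ciita is the master regulator that switches class II genes on. Cxcl13 is a chemokine that draws B cells into the follicles of lymphoid tissue.

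Control libraries held 9831041 to 12686478 counts and Maltodextrin libraries 7454717 to 10996511. Each of the 10 libraries correlated best with the mean venDG profile of the other treatments, with r of 0.982 to 0.985 in Control and 0.989 to 0.993 in Maltodextrin. No 2 libraries of a group agreed within sampling noise (lowest chi-square per degree of freedom 2.18 over 20 pairs). The granule cell marker Prox1 averaged 22.6 ± 3.14 CPM in Control and 25 ± 7.01 CPM in Maltodextrin (counts per 1000000 counts of the library, SD, n = 5 each). In edgeR's quasi-likelihood test on all 30 venDG libraries, 12071 genes were tested. At an adjusted p under 0.05, 1242 of them (10.3%) were higher and 1489 (12.3%) lower in Control than in Maltodextrin. Which direction held more genes turned with no filter on low counts (1918 higher, 1432 lower) and with some single libraries left out. Changes over 2-fold were uneven in direction, with 173 genes higher (1.43%) and 8 lower (0.0663%). The median log2 change over all tested genes was 0.00292, and the median SE of a log2 change was 0.103.

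Most of the genes with the largest increases were immune genes. Cd74 and the class II chains RT1-Ba, RT1-Da and RT1-Db1, the chemokines Cxcl13 and Ccl12, and the myeloid genes Fcnb, Plac8 and Clec7a had log2 changes above 3, meaning higher in Control than in Maltodextrin. Genes of complement, Fc receptors, MHC class I and leukocyte signalling had list medians of 0.63 to 0.91. Most genes that define lymphocytes were too low to test, and of 19 microglia genes 11 were higher and 8, P2ry12 and Tmem119 among them, did not pass the test. Because tissue was extracted in bulk, more cells of a type and more RNA per cell cannot be told apart.

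**Figure D1:**
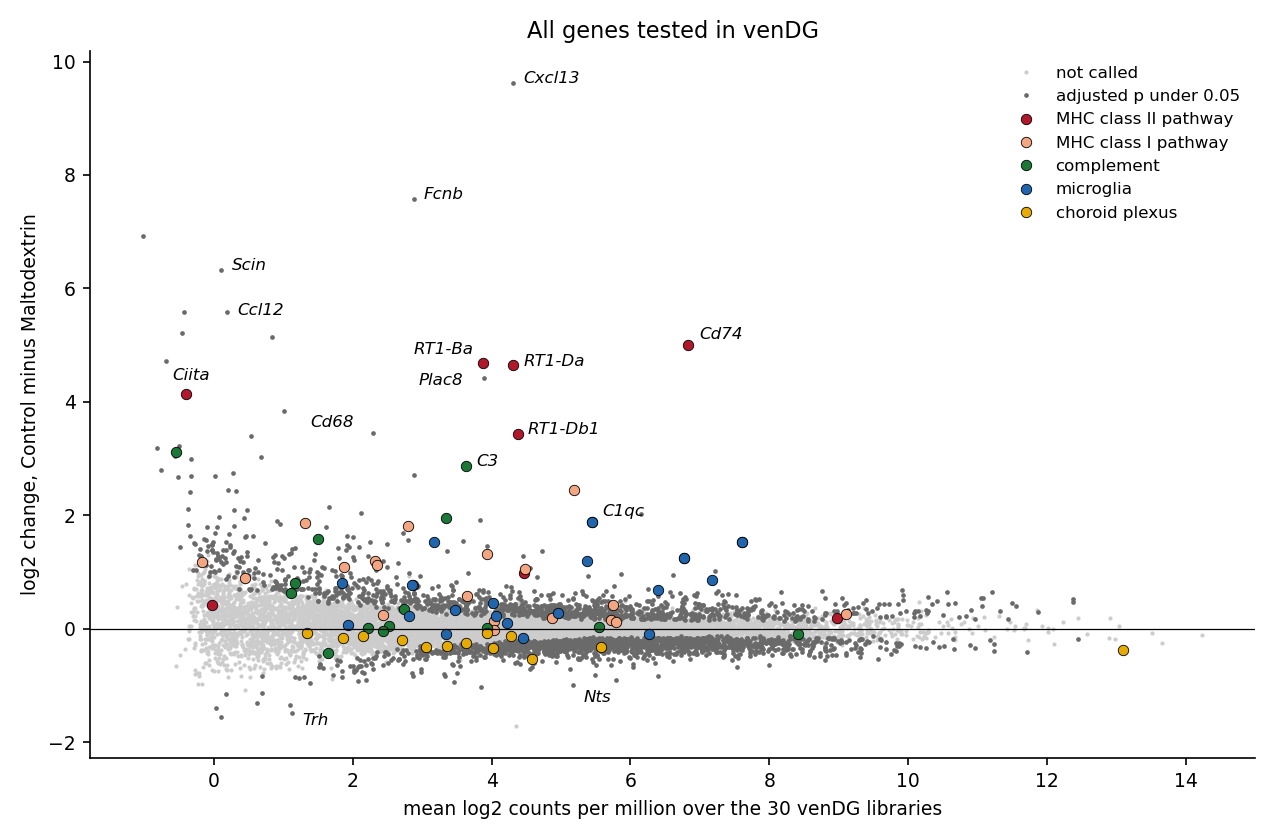
Log2 change (Control minus Maltodextrin, vertical axis) of all 12071 genes tested in venDG against their mean log2 CPM over the 30 venDG libraries (horizontal axis). Each point is a gene, dark grey points passed an adjusted p under 0.05, and coloured points belong to 5 gene lists. The points above a log2 change of 3 include Cxcl13 at 9.62, Fcnb at 7.57, Cd74 at 5.0 and RT1-Db1 at 3.43, while the lowest labelled gene, Trh, lies at -1.49.

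The promoters of class II genes carry a shared pair of elements, the X box and the Y box, to which the complex that recruits Ciita binds. The stretches below, from 5 class II genes of the rat, are shown to compare which patterns of these elements each matches. Each gives 100 bases from 130 to 31 bases upstream of the annotated start, 5′ to 3′ on the gene's strand. They come from RefSeq's promoter table of build GRCr8, while the counts were made on rn6. Capitals mark matches to a pattern of the X box and to the Y box letters GATTGG, each searched on both strands.
RT1-Da (chr20:4515285-4515384, plus strand): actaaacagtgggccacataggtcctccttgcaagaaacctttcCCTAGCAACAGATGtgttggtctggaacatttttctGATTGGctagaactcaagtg
RT1-Bb (chr20:4604149-4604248, minus strand): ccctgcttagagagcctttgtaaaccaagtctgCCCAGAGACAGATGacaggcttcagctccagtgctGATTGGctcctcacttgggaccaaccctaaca
RT1-DOb (chr20:4627554-4627653, minus strand): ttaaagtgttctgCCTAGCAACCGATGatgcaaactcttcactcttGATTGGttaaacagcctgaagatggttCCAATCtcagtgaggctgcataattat
RT1-Ba (chr20:4576927-4577026, plus strand): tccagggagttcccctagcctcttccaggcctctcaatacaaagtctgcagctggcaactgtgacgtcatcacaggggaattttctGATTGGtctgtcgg
RT1-Db1 (chr20:4560193-4560292, minus strand): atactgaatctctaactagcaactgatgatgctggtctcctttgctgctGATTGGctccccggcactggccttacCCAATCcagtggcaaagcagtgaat
RT1-Da, RT1-Bb and RT1-DOb held both, with 22, 21 and 19 bases between the X box and the nearer Y box. RT1-Ba held 1 Y box and RT1-Db1 held 2, and neither window matched the X box pattern in full. The RT1-Db1 window holds actagcaactgatg, which differs from that pattern in its first base alone. A missing match therefore does not show that the element is absent. Among 33469 promoters of 300 bases in that table, 24 (0.0717%) held the X box pattern, 4956 (14.8%) the Y box letters and 4 (0.012%) both. RT1-Db2, RT1-DMa, RT1-DOa and RT1-Ha each matched the Y box letters alone, and the windows of Cd74, Ctss, Ifi30 and Cxcl13 matched neither. A match is a description of the sequence, and binding was not measured.

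Of 8 tested class II pathway genes 7 rose. Cd74 read 587, 567, 550, 571 and 559 CPM in Control libraries 1 to 5, and 19.4, 19.0, 15.5, 18.0 and 16.7 CPM in Maltodextrin libraries 1 to 5. The groups lay far apart, and the log2 change was 5.0 (SE 0.0838, adjusted p = 1.38e-32). RT1-Da, an alpha chain of the rat D molecule, stood at 87.5 to 95.9 CPM in Control against 3.18 to 4.46 CPM in Maltodextrin (log2 change 4.65, SE 0.118, adjusted p = 7.15e-27). RT1-Ba, the alpha chain of the B molecule, ranged over 63.9 to 73.5 CPM in Control against 1.87 to 3.51 CPM in Maltodextrin (log2 change 4.69, SE 0.133, adjusted p = 1.86e-25). RT1-Db1, a beta chain of the D molecule, had a log2 change of 3.43 (80.1 ± 6.02 CPM in Control and 7.46 ± 0.856 CPM in Maltodextrin, SD, n = 5 each, adjusted p = 2.58e-23). None of these 4 genes overlapped between the groups. The share of all tested genes without overlap was not counted, so a lack of overlap, here and below, does not set a gene apart from the rest. Genes outside the immune lists, such as Syn1 and Ttr, did not overlap either.

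The regulator Ciita was itself higher, at low counts. Its libraries held 1.26, 1.70, 1.83, 1.82 and 1.86 CPM in Control and 0, 0.22, 0.208, 0 and 0 CPM in Maltodextrin, or 90 against 4 counts. Every Control library lay above every Maltodextrin library, with a log2 change of 4.13 (SE 0.423, adjusted p = 3.72e-09). Ciita passed the low-count filter only through its Control libraries, so its entry into the test rested on the group where it was high. Ifi30, a thiol reductase that opens antigens in lysosomes, rose by 0.98 on the log2 scale (33.1 ± 3.25 CPM in Control, 16.8 ± 0.948 CPM in Maltodextrin, adjusted p = 2.93e-11). Ctss, the protease that trims Cd74, rose by 0.19 (536 ± 11.2 CPM in Control, 471 ± 8.79 CPM in Maltodextrin, adjusted p = 0.0223). RT1-DMa, part of the peptide editor, did not pass (log2 change 0.42, adjusted p = 0.417), and its groups overlapped.

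In all, 8 of the 14 class II pathway genes had enough counts to be tested, 7 were higher and 0 lower, with a median log2 change of 3.78 against 0.00292 over all genes. Without Ciita, 6 of 7 were higher and the median was 3.43. The remaining 6 of the 14 were below the filter on low counts and were read by their totals over 5 libraries. RT1-Bb, the partner of RT1-Ba, had 66 counts in Control and 5 in Maltodextrin, RT1-DOa had 72 and 5, and RT1-Db2 had 61 and 12. In these 3 genes every Control library lay above every Maltodextrin library. RT1-DMb with 29 and 10 counts and RT1-DOb with 30 and 8 overlapped between the groups, and RT1-Ha had 1 and 0. RT1 genes include near-identical copies, so reads may have been split between them and the level of a single RT1 gene is uncertain. In all, 123 of the 12071 tested genes passed the low-count filter only through the Control libraries, a check chosen after seeing the data. Among them, beside Ciita, were Cxcl13, Fcnb, Scin, Ccl12, Kcnn4, Clec7a, C4b, Zbp1 and Klrk1. Their entry rested on the group where they were high, so their p-values and their part in a list's count support nothing. Without such genes 14 of 19 class I genes (median 0.78), 18 of 34 interferon genes (0.38), 7 of 16 complement genes (0.49), 7 of 15 monocyte and macrophage genes (0.42) and 6 of 13 activated microglia genes (0.19) were higher, and 0 of 5 neutrophil and 0 of 4 lymphoid tissue genes.

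**Figure D2:**
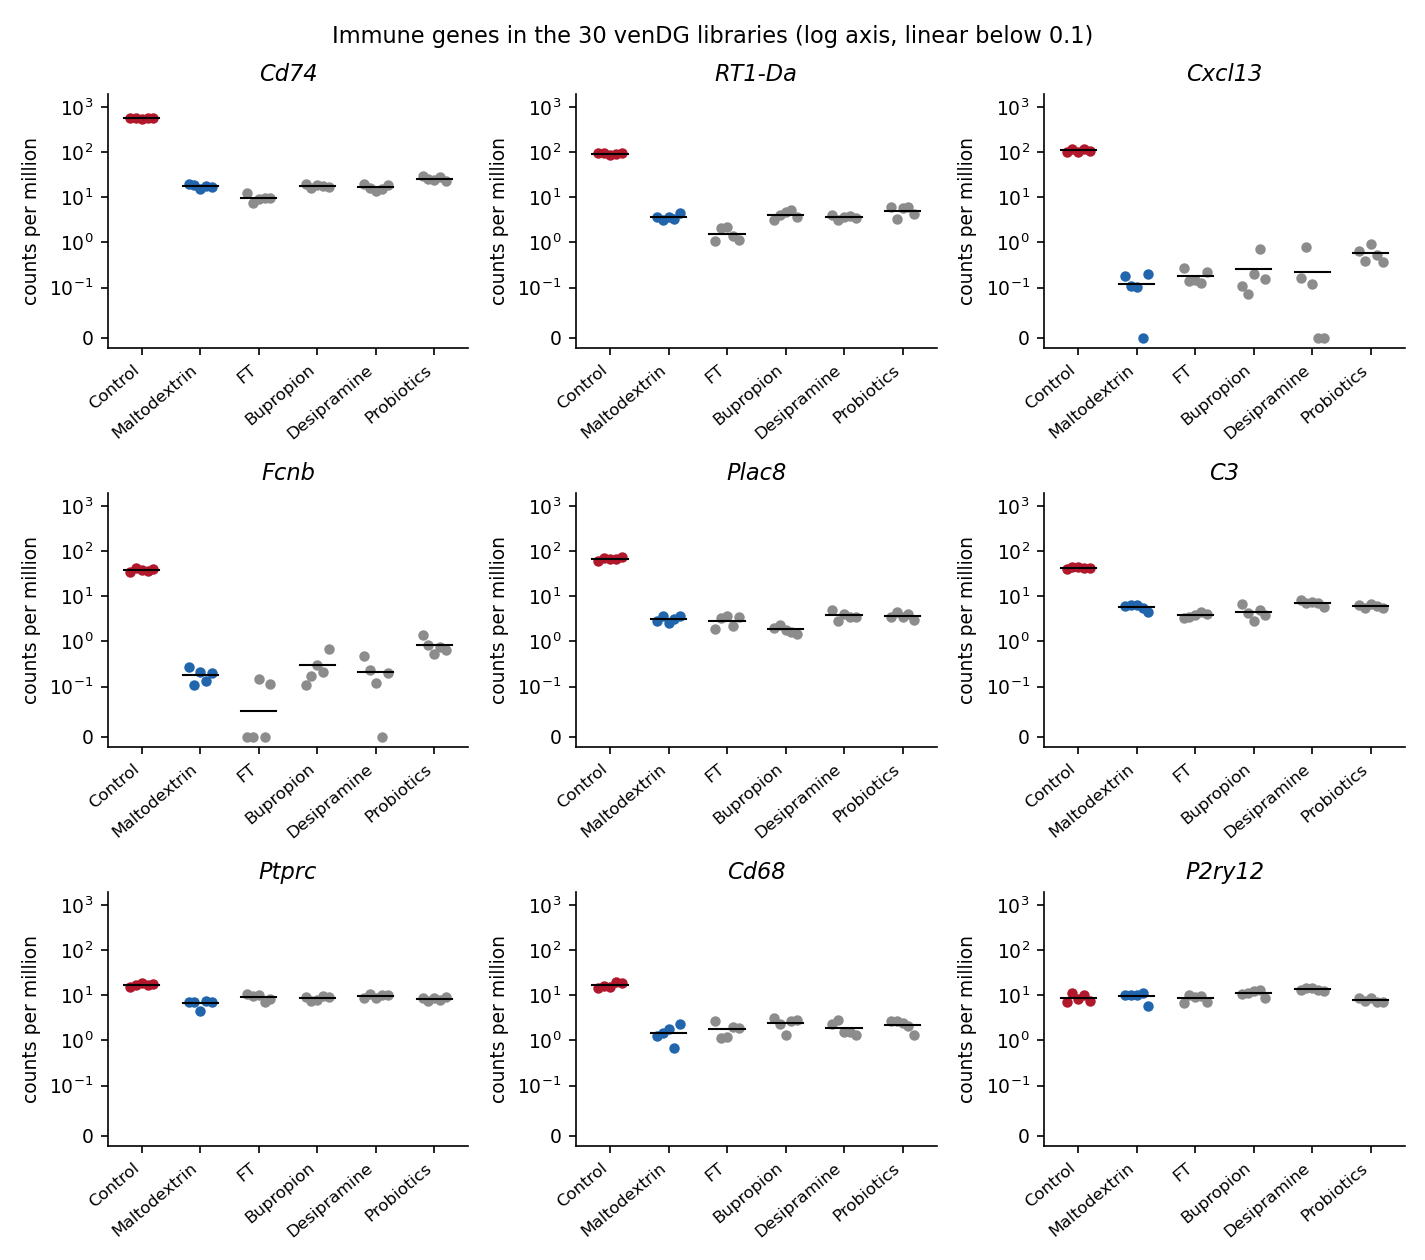
CPM of 9 genes in each of the 30 venDG libraries (points, log axis that is linear below 0.1) by treatment, with the mean of 5 libraries as a black line. The 5 Control libraries (red) of Cd74, RT1-Da, Cxcl13, Fcnb, Plac8, C3, Ptprc and Cd68 lie above every library of Maltodextrin (blue) and of the other treatments (grey), while those of P2ry12 lie among them.

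Cxcl13 had the largest change of any named gene. Its Control libraries read 103, 118, 101, 116 and 109 CPM, and its Maltodextrin libraries 0.182, 0.11, 0.104, 0 and 0.198 CPM. Counts were 5870 in Control against 6 in Maltodextrin, and the log2 change was 9.62 (SE 0.222, adjusted p = 4.42e-28). Ccl12, a chemokine that attracts monocytes in the mouse, held 3.97 to 5.30 CPM in Control and 0 to 0.402 CPM in Maltodextrin (log2 change 5.57, SE 0.496, adjusted p = 1.35e-10). Cxcl13 and Ccl12 passed the low-count filter only through Control, so their p-values support nothing. Of 12 chemokines tested, 4 were higher and 0 lower, and the other 2 were Cxcl16 (log2 change 0.73, adjusted p = 0.000967) and Cx3cl1 (0.26, adjusted p = 0.00417), a neuronal chemokine read by microglia. The list's median log2 change was 0.41, and 0.10 over the 9 members that did not enter the test through Control alone, of which 2 were higher. For Cx3cl1 Control was lower than the mean of the 4 other venDG groups (log2 difference -0.17, adjusted p = 0.00768) and Maltodextrin lower still (-0.43, adjusted p = 1.12e-07). Of the lymphoid tissue list, which holds Cxcl13 too, 1 of 5 tested genes was higher. Of the cytokine list, 0 of 6 tested genes were higher, and Il33, an alarm signal of glia, was lower by 0.23 (adjusted p = 0.0256). Leaving out any of 6 single libraries put Il33 past 0.05, with adjusted p up to 0.125 without Control replicate 4.

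Genes of myeloid cells were also higher. Fcnb, a pattern-recognition lectin of myeloid cells, read 33.7, 41.8, 39.3, 36.1 and 41.2 CPM in Control, and 0.273, 0.11, 0.208, 0.134 and 0.198 CPM in Maltodextrin (log2 change 7.57, SE 0.225, adjusted p = 7.9e-25). Plac8, a small cysteine-rich protein of leukocytes, ranged over 61.7 to 73.7 CPM in Control against 2.5 to 3.73 CPM in Maltodextrin (log2 change 4.41, SE 0.124, adjusted p = 1.58e-25). Cd68, a lysosomal protein of macrophages, read 14.6 to 19.7 CPM in Control against 0.671 to 2.28 CPM in Maltodextrin (log2 change 3.46, SE 0.199, adjusted p = 8.9e-16). The groups did not overlap in any of the 3. Fcnb passed the low-count filter only through Control, so its p-value and lack of overlap support nothing.

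Clec7a, the dectin-1 receptor for fungal sugars, averaged 8.01 ± 0.56 CPM in Control and 0.561 ± 0.261 CPM in Maltodextrin (log2 change 3.84, adjusted p = 6.35e-12). Kcnn4, a calcium-activated potassium channel of lymphocytes and macrophages, had 7.15 ± 0.43 CPM in Control and 0.185 ± 0.128 CPM in Maltodextrin (log2 change 5.15, adjusted p = 5.04e-16). Scin, an actin-severing protein, had 233 counts in Control and 2 in Maltodextrin, a ratio of 102 at equal depth with an exact 95% counting interval of 28 to 851. In none of these did a Maltodextrin library reach the lowest Control library. All of them passed the low-count filter only through Control, so their p-values and lack of overlap support nothing.

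The monocyte and macrophage list moved in part. Of 16 tested members, 8 were higher, 1 lower and 7 not called, with a median log2 change of 0.45, and the list's summed level was 310 to 352 CPM in Control and 197 to 211 CPM in Maltodextrin. The higher members included Fcgr1a (log2 change 1.61), Lyz2 (0.42) and Plac8. S100a4, also abundant outside myeloid cells, was lower by 0.34 (27.2 ± 2.97 CPM in Control, 34.4 ± 1.60 CPM in Maltodextrin, adjusted p = 0.00101). Markers of the macrophages that sit along vessels and in the meninges did not pass the test. Mrc1 had a log2 change of 0.03 (adjusted p = 0.914), Lyve1 of 0.22 (adjusted p = 0.365) and Cd163 of 0.67 (adjusted p = 0.151), and their groups overlapped.

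Of the 19 microglia genes, all tested, 11 were higher, 0 lower and 8 not called, with a median of 0.45. Tyrobp, the signalling adaptor of myeloid receptors, read 69.2, 70.5, 76.9, 72.0 and 77.6 CPM in Control and 38.1, 27.7, 27.7, 29.4 and 36.3 CPM in Maltodextrin (log2 change 1.2, SE 0.099, adjusted p = 2.25e-11). Aif1, the cytoskeletal protein Iba1, had 189 ± 11.2 CPM in Control and 104 ± 8.63 CPM in Maltodextrin (log2 change 0.86, adjusted p = 1.53e-10). Csf1r, the receptor that keeps microglia alive, rose by 0.68 (104 ± 5.15 CPM in Control, 65.2 ± 2.40 CPM in Maltodextrin, adjusted p = 3.9e-13). In each of these every Control library was above every Maltodextrin library. Against the mean of the 4 other venDG groups, Aif1 and Csf1r were higher in Control (log2 differences 0.49 and 0.41, adjusted p = 9.34e-09 and 1.69e-11). Both were lower in Maltodextrin (-0.37 and -0.26, adjusted p = 1.93e-05 and 2.59e-06), where Tyrobp was not called (-0.02, adjusted p = 0.874).

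Among genes used to tell microglia from other macrophages, some were called and some were not. Cx3cr1, the receptor for Cx3cl1, was higher (22.4 ± 1.78 CPM in Control, 16.4 ± 2.15 CPM in Maltodextrin, log2 change 0.45, adjusted p = 0.00117), as were Selplg (0.76, adjusted p = 0.000124) and Slc2a5 (0.33, adjusted p = 0.0349). P2ry12, a purine receptor of resting microglia, read 7.02 to 11.3 CPM in Control and 5.85 to 11 CPM in Maltodextrin (log2 change -0.10, adjusted p = 0.638). Tmem119 had 17.3 ± 2.41 CPM in Control and 16.2 ± 0.554 CPM in Maltodextrin (log2 change 0.10, adjusted p = 0.52). The groups overlapped in both, and also in Cx3cr1. The microglia list's summed level was 1270 to 1370 CPM in Control and 637 to 720 CPM in Maltodextrin, a sum that includes the 3 C1q genes of complement.

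Of 14 tested genes that mark activated microglia in mouse models, 7 were higher and 2 lower, with a median of 0.40. Lgals3, a sugar-binding protein of phagocytes, rose by 1.63 (8.21 ± 1.31 CPM in Control, 2.62 ± 0.591 CPM in Maltodextrin, adjusted p = 3.59e-08). Tspo, the mitochondrial protein imaged in brain inflammation, rose by 1.68 (15.3 ± 0.824 CPM in Control, 4.81 ± 1.47 CPM in Maltodextrin, adjusted p = 1.57e-10). Apoe and Spp1, which lead that state in mice, had changes of 0.19 and -0.20 (adjusted p = 0.378 and 0.567), and Lpl was lower by 0.27 (adjusted p = 0.000565). Lysosomal genes followed in part, with 9 of 18 tested higher and 2 lower (median 0.25). Among them Ctsz rose by 1.28 (39.1 ± 2.26 CPM in Control, 16.1 ± 1.09 CPM in Maltodextrin, adjusted p = 6.59e-14) and Grn by 0.76 (adjusted p = 1.52e-10).

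Complement genes of the classical pathway were higher in part. C1qa, C1qb and C1qc, the 3 chains of the recognition molecule, averaged 390 ± 26.6, 206 ± 5.83 and 105 ± 9.07 CPM in Control and 135 ± 16.2, 87.0 ± 3.46 and 28.2 ± 3.63 CPM in Maltodextrin. Their log2 changes were 1.53, 1.25 and 1.89 (adjusted p = 1.25e-11, 9.79e-14 and 3.41e-14). C3, the protein on which all complement pathways meet, read 39.4, 44.9, 44.6, 42.3 and 41.6 CPM in Control and 6.09, 6.48, 6.35, 5.63 and 4.56 CPM in Maltodextrin (log2 change 2.87, SE 0.109, adjusted p = 1.93e-21).

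C2, the protease that C1 cuts, rose by 1.94 (24.2 ± 1.86 CPM in Control, 6.30 ± 0.999 CPM in Maltodextrin, adjusted p = 4.86e-17). C4a and C4b, near-identical copies whose reads may be shared, rose by 1.57 and 3.11 (adjusted p = 8.68e-06 and 1.09e-06). C4b passed the low-count filter only through Control, so its p-value supports nothing. Across the complement list 8 of 17 tested genes were higher and 0 lower, with a median of 0.63. C1r and C1s, the proteases carried by C1q, had log2 changes of 0.00 and 0.05 (adjusted p = 0.981 and 0.855).

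Receptors for antibody and genes of the class I route were higher in part. Fcgr3a, an activating IgG receptor, read 21.5 to 25 CPM in Control and 2.40 to 4.83 CPM in Maltodextrin (log2 change 2.71, SE 0.129, adjusted p = 2.84e-18). Its signalling chain Fcer1g had a change of 0.96 (91.1 ± 4.01 CPM in Control, 46.7 ± 4.02 CPM in Maltodextrin, adjusted p = 1.37e-10), and 4 of the 6 Fc receptor genes were higher and 0 lower. The rat Fc receptor genes resemble one another, so the split between them is uncertain. RT1-A2, a class I heavy chain, read 124, 108, 111, 110 and 123 CPM in Control and 24.2, 17.1, 23.9, 19.5 and 20.6 CPM in Maltodextrin (log2 change 2.45, SE 0.0863, adjusted p = 1.57e-22). The groups did not overlap for either gene.

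Of 20 tested class I genes 15 were higher and 0 lower, with a median of 0.84. They included the immunoproteasome subunits Psmb8 (log2 change 1.2, adjusted p = 2.71e-06) and Psmb9 (1.12, adjusted p = 5.1e-05), which cut peptides for class I, and the peptide pump Tap1 (1.08, adjusted p = 7.77e-05). B2m, the light chain of every class I molecule, rose by 0.26 (691 ± 34.0 CPM in Control, 579 ± 44.3 CPM in Maltodextrin, adjusted p = 0.00265).

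Signalling genes shared by all white blood cells were higher almost throughout the list, with 22 of 24 tested genes higher, 0 lower and a median of 0.91. Ptprc, the CD45 phosphatase, read 15.3, 17.0, 19.0, 17.2 and 17.6 CPM in Control and 7.28, 7.03, 4.48, 7.51 and 7.24 CPM in Maltodextrin (log2 change 1.36, SE 0.114, adjusted p = 2.93e-11). Itgal, the alpha chain of the integrin LFA-1, had 4.03 ± 0.392 CPM in Control and 0.486 ± 0.223 CPM in Maltodextrin (log2 change 3.02, adjusted p = 9.02e-11). Spi1, the myeloid factor PU.1, rose by 1.27 (adjusted p = 3.55e-05), and the groups did not overlap in Ptprc, Itgal or Spi1.

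The interferon list showed a partial rise, with 19 of 36 tested genes higher, 0 lower and a median of 0.45. Mx1, an antiviral GTPase, read 47.0, 47.9, 41.6, 46.6 and 48.3 CPM in Control and 17.9, 16.5, 20.9, 16.6 and 17.3 CPM in Maltodextrin (log2 change 1.37, SE 0.0835, adjusted p = 3.97e-15). Gbp2, a GTPase induced by interferon gamma, had 10.2 ± 0.569 CPM in Control and 2.45 ± 0.709 CPM in Maltodextrin (log2 change 2.05, adjusted p = 3.07e-12). Zbp1, a sensor of Z-form nucleic acid, had 139 counts in Control and 2 in Maltodextrin, a ratio of 61.1 at equal depth (exact 95% counting interval 16.6 to 509). Isg15, among the most inducible genes of type I interferon, had a change of 0.21 (adjusted p = 0.368), and its groups overlapped. Innate sensors were higher in 4 of 11 tested genes and lower in 0 (median 0.57), led by the inflammasome adaptor Pycard (log2 change 0.88, adjusted p = 4.61e-05) and Tlr3 (0.84, adjusted p = 0.000317). For Tlr3 the log2 difference from the 4 other venDG groups was 0.20 in Control (adjusted p = 0.161) and -0.64 in Maltodextrin (adjusted p = 0.000402), and its mean was 5.55 CPM in Control against 7.58 CPM in Desipramine.

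**Figure D3:**
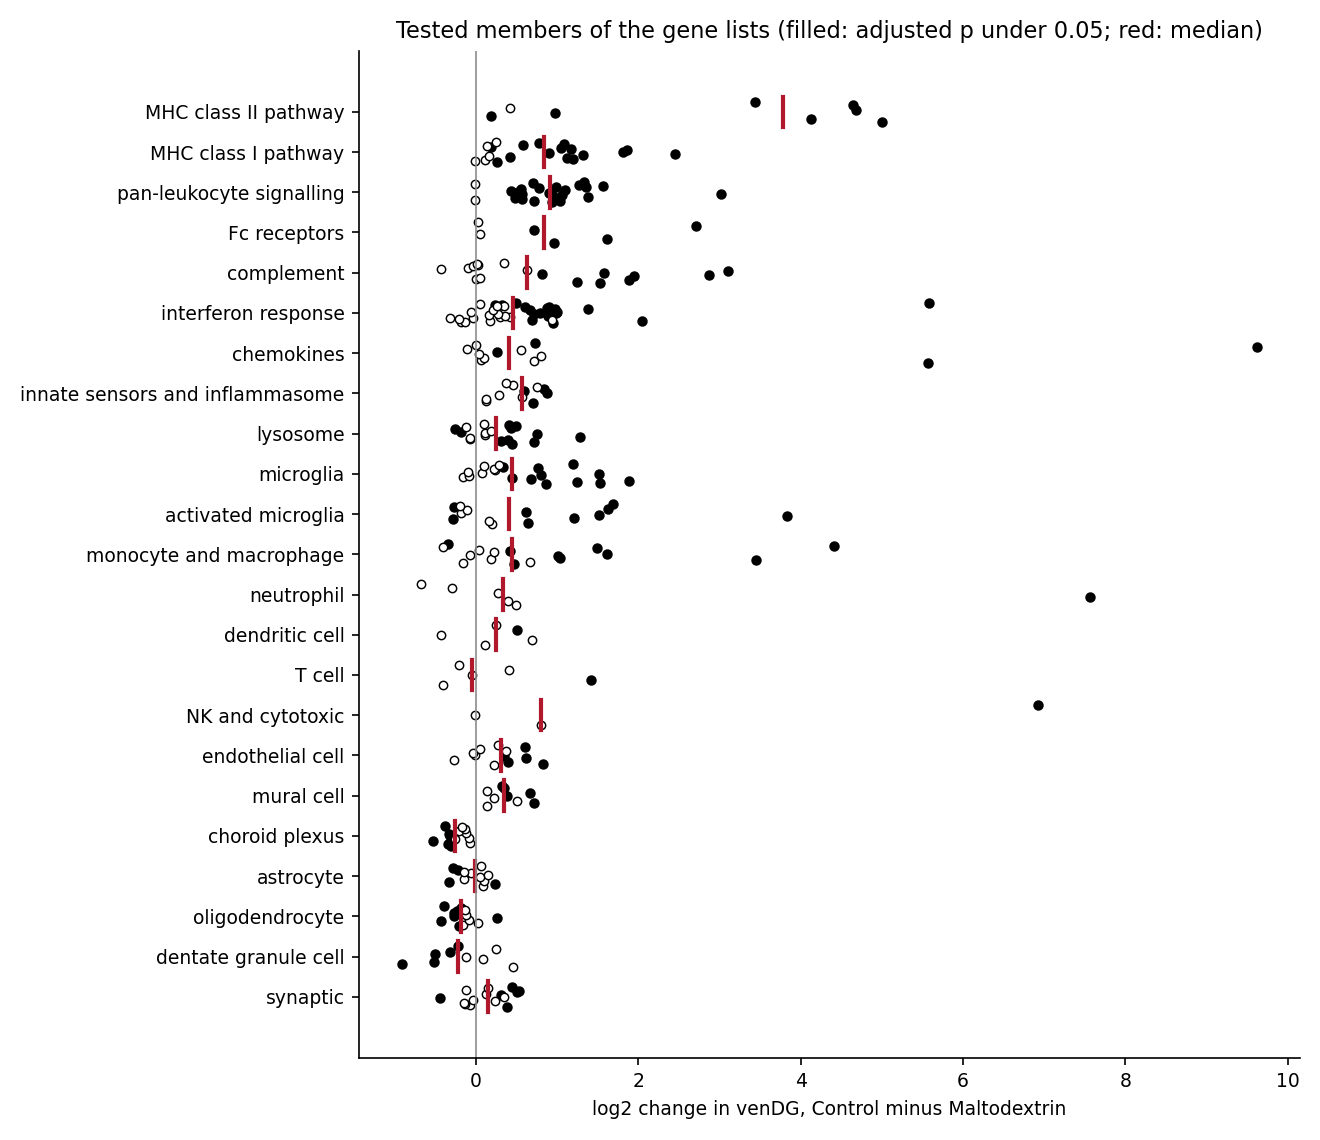
Log2 change in venDG (Control minus Maltodextrin, horizontal axis) of each tested member of 23 gene lists, with filled points at an adjusted p under 0.05 and the list median as a red line. Class II has its median at 3.78, the other immune lists of at least 8 tested genes between 0.25 and 0.91, and choroid plexus at -0.26.

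Lymphocyte genes were mostly too low to test. None of the 13 B cell genes in the table passed the filter on low counts, and their summed level was 4.21 to 6.00 CPM in Control and 1.09 to 2.0 CPM in Maltodextrin. Ms4a1, the CD20 protein, had 15 counts over 5 libraries in Control and 2 in Maltodextrin, a ratio of 6.59 with an exact 95% counting interval of 1.53 to 59.4. Cd22, an inhibitory receptor of B cells also found on microglia, had 67 and 5 counts. Cr2, a complement receptor of B cells and follicular dendritic cells, had 31 counts in Control and 0 in Maltodextrin. Set against the 0.0635 CPM that 3 counts over the Maltodextrin libraries represent, Cr2 was at least 9.08-fold higher. Control did not stand apart from the other treatments in Cr2, with a mean of 0.569 CPM in Control against 0.472 CPM in Bupropion, and 6 of the 25 other venDG libraries reached the lowest Control library.

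The T cell list had 5 of 23 genes tested, 1 higher and 0 lower, with a median of -0.05 and a summed level of 13.7 to 15.7 CPM in Control and 7.53 to 10.2 CPM in Maltodextrin. Cd6, an adhesion receptor of T cells, was the higher one (3.58 ± 0.456 CPM in Control, 1.34 ± 0.429 CPM in Maltodextrin, log2 change 1.42, adjusted p = 5.03e-05). Cd3e, a chain of the T cell receptor complex, read 1.02 to 2.69 CPM in Control and 2.08 to 3.18 CPM in Maltodextrin (log2 change -0.40, adjusted p = 0.216). Cd3d had 16 and 9 counts and Cd2 had 14 and 1, and both were too low for the test.

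Of the natural killer and cytotoxic list 3 of 18 genes were tested, and Klrk1, the activating receptor NKG2D, was higher. It had 1.58, 1.60, 1.63, 1.24 and 1.21 CPM in Control and 0 in all 5 Maltodextrin libraries, or 78 counts against 0, which is at least 22.9-fold on the same 3-count limit (adjusted p = 3.32e-07). It passed the low-count filter only through the Control libraries, so its entry rested on the group where it was high and its p-value supports nothing. The same holds for the entry of 1 other tested gene of the list, which was not called, and 0 of the 1 remaining tested genes was called. Gzmm, a granzyme, had a change of -0.02 (adjusted p = 0.934). The list's sums overlapped between groups, at 25.9 to 28.8 CPM in Control and 19.9 to 28.3 CPM in Maltodextrin.

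Neutrophil, dendritic and plasma cell lists each had 1 gene higher, of 6, 5 and 2 tested, against 10.3% of all tested genes. Counts this small do not show a rise of these lists. Of 6 tested neutrophil genes Fcnb alone was called, and it entered the test through Control alone, so its call supports nothing. None of the 5 others was called. S100a8, the most abundant neutrophil protein, read 0.50 to 1.12 CPM in Control and 0.198 to 1.46 CPM in Maltodextrin (log2 change -0.30, adjusted p = 0.59). Of 5 dendritic cell genes Flt3, a growth factor receptor, was higher by 0.50 (adjusted p = 0.0496), a call that 6 single-library omissions removed (adjusted p up to 0.145, without Maltodextrin replicate 3). Of 2 plasma cell genes Sdc1, which other cell types also make, was higher by 1.53 (adjusted p = 0.00211). Mast cell genes gave 0 calls of 2 tested. The neutrophil sum, which includes Fcnb, was 43.3 to 52.6 CPM in Control and 6.74 to 9.89 CPM in Maltodextrin, and the dendritic cell sum was 48.9 to 57.1 CPM in Control and 44.7 to 47.8 CPM in Maltodextrin.

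Of 12 endothelial genes 5 were higher, 0 lower and 7 not called (median 0.31), among them the tight junction protein Cldn5 (40.7 ± 2.94 CPM in Control, 31.0 ± 3.74 CPM in Maltodextrin, log2 change 0.39, adjusted p = 0.00676) and the endothelial co-receptor Eng (0.61, adjusted p = 0.000155). Of 9 mural cell genes 5 were higher, 0 lower and 4 not called (median 0.35). In the erythrocyte list 0 of 4 tested genes were higher and 1 lower (Hbb, a globin with near-identical copies, -0.25, adjusted p = 0.0211), with sums of 676 to 793 CPM in Control and 796 to 953 CPM in Maltodextrin.

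Genes lower in Control changed by less. Nts, the peptide neurotensin, had the smallest p, with 11.8, 12.7, 12.6, 12.8 and 13.5 CPM in Control and 25.2, 24.4, 27.8, 27.1 and 22.0 CPM in Maltodextrin (log2 change -0.99, SE 0.0675, adjusted p = 1.11e-13). C1ql3, a C1q-like protein that granule cells release at synapses, had 25.1 ± 1.19 CPM in Control and 47.4 ± 7.07 CPM in Maltodextrin (log2 change -0.91, adjusted p = 8.8e-11). Enpp2 (autotaxin, -0.55), Pex5l (a partner of HCN channels, -0.61) and Rasa1 (a Ras inhibitor, -0.50) followed, and Trh, the thyrotropin-releasing peptide, had -1.49 (adjusted p = 0.000665). The groups did not overlap in any of these 6. Against the mean of the 4 other venDG groups, Enpp2 was higher in Control (log2 difference 0.33, adjusted p = 7.6e-08) and higher still in Maltodextrin (0.88, adjusted p = 1.91e-17). Nts, C1ql3, Rasa1, Pex5l and Trh were lower in Control than that mean (-1.59, -1.22, -0.65, -0.67 and -0.84). Maltodextrin was also below it in Nts, C1ql3 and Rasa1 (-0.60, -0.31 and -0.15, adjusted p = 1.62e-11, 0.000126 and 0.0041). For Pex5l Maltodextrin was not called (-0.06, adjusted p = 0.42), and for Trh it was higher than that mean (0.65, adjusted p = 0.0203).

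The remaining large decreases were less steady. Slc25a2, Galr1, Terc and Hmgn1 had log2 changes of -1.40, -0.95, -1.55 and -1.13. The calls of Terc (adjusted p = 0.0644 without Maltodextrin replicate 5) and Hmgn1 (0.0521 without Maltodextrin replicate 1) each ended with 1 library left out. Those of Fibcd1, Fut7, Bhmt and Bc1 (-1.34, -1.32, -1.16 and -1.02) each ended when any 1 of 6 libraries was left out, with the highest adjusted p at 0.19 for Fibcd1 without Maltodextrin replicate 3, 0.14 for Fut7 without Maltodextrin replicate 1, 0.104 for Bhmt without Maltodextrin replicate 5 and 0.0893 for Bc1 without Maltodextrin replicate 2. Against the mean of the 4 other venDG groups, Terc, Slc25a2, Fut7 and Bc1 were higher in Maltodextrin (log2 differences 1.18, 0.98, 1.82 and 1.21). In Control the same genes were not called (-0.37, -0.42, 0.51 and 0.19, adjusted p = 0.539, 0.271, 0.341 and 0.648). Galr1, Hmgn1, Fibcd1 and Bhmt were lower in Control (-1.27, -0.97, -1.05 and -1.405) and not called in Maltodextrin.

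Among resident cell types, dentate granule cell genes were lower in 5 of 9 tested and higher in 0 (median -0.23), with Calb1, a calcium buffer of mature granule cells, at 101 ± 2.26 CPM in Control and 145 ± 15.8 CPM in Maltodextrin (log2 change -0.52, adjusted p = 3.84e-07). Oligodendrocyte genes were lower in 7 of 13 and higher in 1 (median -0.18), with the sphingolipid enzyme Ugt8 at -0.40 (adjusted p = 1.23e-05) and Mag, the higher one, at 0.25 (adjusted p = 0.016). Choroid plexus genes were lower in 6 of 13 and higher in 0 (median -0.26). Ttr, the thyroid hormone carrier of choroid plexus, had 9963 ± 632 CPM in Control and 12980 ± 990 CPM in Maltodextrin (log2 change -0.38, adjusted p = 0.000239). Those levels in both groups lay inside the range of the other venDG treatments, whose means ran from 737 CPM in FT to 15800 CPM in Bupropion, and the part of choroid plexus in the immune differences was not tested. Astrocyte genes were higher in 1 of 12 and lower in 3, synaptic genes higher in 5 of 15 and lower in 1, and heat shock genes were called in 0 of 10. Gfap, the filament of reactive astrocytes, was higher by 0.44 (adjusted p = 0.000223).

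Which of the 2 groups stood apart was read against the 20 libraries of FT, Bupropion, Desipramine and Probiotics. Cd74 means in those 4 groups and in Maltodextrin lay between 9.66 CPM in FT and 26.1 CPM in Probiotics, and no library among these 25 exceeded 29.5 CPM, against at least 550 CPM in Control. Cxcl13 reached at most 0.937 CPM in the 25 libraries and Fcnb at most 1.39 CPM, against at least 101 and 33.7 CPM in Control. Cxcl13 and Fcnb passed the low-count filter only through Control, so their low levels elsewhere follow in part from how they entered the test. Plac8, C3, Cd68, Ptprc, C1qc, RT1-A2 and Mx1 did not enter that way, and likewise had no library at or above the lowest Control library. The same was seen outside the immune lists, in Gfap, Mag and Tagln. The share of all tested genes that did so was not counted, so it does not set the immune genes apart from the rest. Several other genes called higher against Maltodextrin did not stand apart in this way. In Lyz2 10 of the 25 libraries reached the lowest Control library, in Tlr3 9, in Ctss and Flt3 8, in Spi1 6, in B2m 5, in Aif1 2 and in Cx3cl1 20. Lyz2 averaged 143 CPM in Control against 154 CPM in Probiotics, and Ctss 536 CPM in Control against 622 CPM in Probiotics.

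Against the mean of the 4 groups, 3303 genes were higher (27.4%) and 3000 lower (24.9%) in Control, while 2277 were higher (18.9%) and 1944 lower (16.1%) in Maltodextrin. Both comparisons share the same 4 groups. For Cd74 the log2 difference was 5.18 in Control and 0.18 in Maltodextrin (adjusted p = 6.64e-41 and 0.0575). For Cxcl13 it was 8.67 in Control and -0.96 in Maltodextrin (adjusted p = 3.27e-36 and 0.226), and for C3 3.09 and 0.22 (adjusted p = 2.5e-28 and 0.115). Cxcl13 entered the test through Control alone, so its p-value in Control supports nothing here either. The class II list was higher in 7 of 8 tested genes in Control (median 2.97) and in 0 in Maltodextrin, where 2 were lower (median 0.07). Ciita, which entered the test through Control alone, is among the 7 and among the 2. The leukocyte signalling list was higher in 22 of 24 tested genes in Control (median 0.73). In Maltodextrin 2 of them were higher and 7 lower (median -0.2), with Ptprc among the lower ones (-0.33, adjusted p = 0.00879). The choroid plexus list gave another order, with 10 of 13 genes higher in Control and 13 of 13 in Maltodextrin (medians 0.65 and 0.72). The oligodendrocyte list, lower against Maltodextrin in 7 of 13 genes, was higher against the 4 groups in 10 and lower in 1 in Control, and higher in 13 of 13 in Maltodextrin (medians 0.25 and 0.42).

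**Figure D4:**
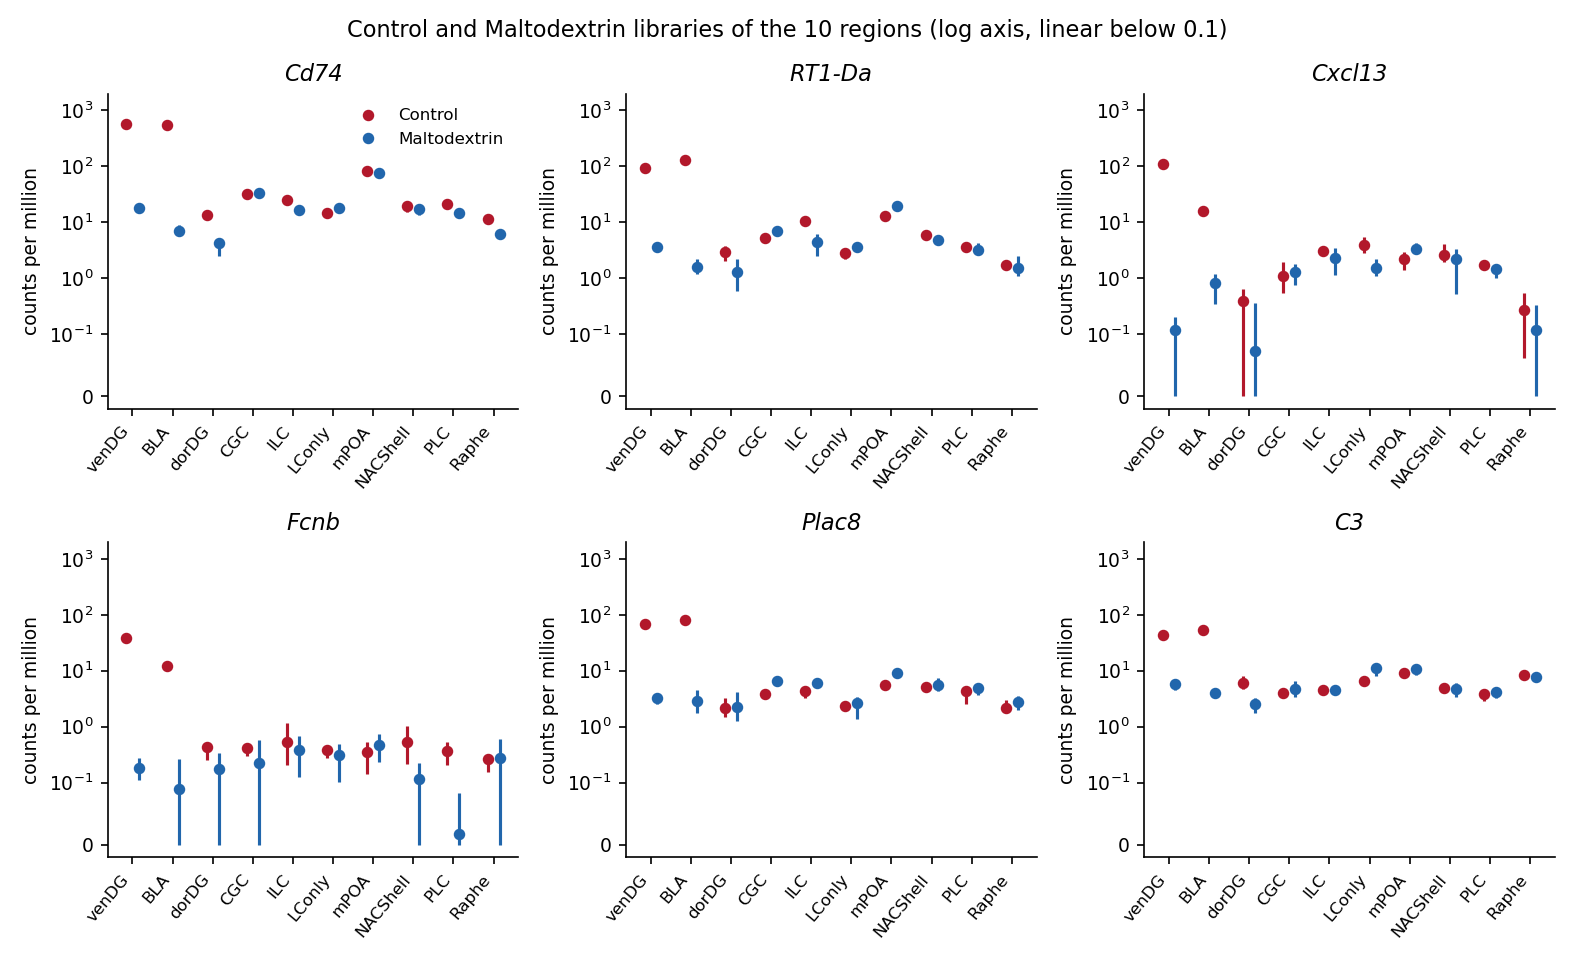
Mean CPM of 6 immune genes in Control (red) and Maltodextrin (blue) in the 10 regions, with vertical lines from the lowest to the highest of 5 libraries (log axis that is linear below 0.1). Control means of Cd74 are 567 CPM in venDG and 536 CPM in BLA, against 17.7 and 7.01 CPM in Maltodextrin, and the Control points of venDG and BLA stand above those of the other 8 regions in all 6 genes.

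The same contrast was set against the dorsal dentate gyrus (dorDG) and against BLA, the second region in which Control libraries were rich in Cd74. In dorDG Cd74 averaged 13.6 ± 1.58 CPM in Control and 4.18 ± 1.13 CPM in Maltodextrin, and Cxcl13 averaged 0.39 ± 0.255 CPM in Control and 0.0727 ± 0.163 CPM in Maltodextrin. A test of the difference between venDG and dorDG on 20 libraries called 562 of 11729 genes as more positive in venDG (4.79%) and 734 as more negative (6.26%), or 11% in either direction. Cd74 differed by 3.35 on the log2 scale (SE 0.166, adjusted p = 5.55e-11), Fcnb by 6.34 (adjusted p = 0.000169), Plac8 by 4.45 (adjusted p = 1.01e-07), C3 by 1.68 (adjusted p = 8.13e-05) and Ptprc by 1.49 (adjusted p = 6.31e-05). Of 7 class II genes tested 6 differed upward and 0 downward (median 2.97). Ciita, which is among the 6, and Fcnb passed the venDG filter only through Control, so their part in these results supports nothing.

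The most positive differences from dorDG were in Ccl12 (8.03, SE 1.39), Cxcl13 (7.62, SE 1.65), Scin (6.92, SE 0.931), Fcnb (SE 0.929) and Kcnn4 (4.76, SE 0.752). Each had at most 9 counts over the Maltodextrin venDG libraries and passed the venDG filter only through Control. The sizes and order of these differences are therefore uncertain. Cxcl13 rested on few dorDG counts, and without Maltodextrin replicate 1 its difference of 5.15 had an adjusted p of 0.958. The most negative were in the ribosomal RNA Rn5-8s (-2.45), Trh (-1.90), the chemokine scavenger Ackr3 (-1.69), Crhbp, which binds corticotropin-releasing hormone (-1.40), and the synaptic vesicle protein Syp (-1.20). In Syp venDG itself had 209 ± 33.7 CPM in Control and 215 ± 43.7 CPM in Maltodextrin, and dorDG had 288 ± 35.8 CPM in Control and 125 ± 9.50 CPM in Maltodextrin.

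In BLA, Cd74 and RT1-Da were also high in Control. Cd74 averaged 536 ± 48.5 CPM in Control and 7.01 ± 1.17 CPM in Maltodextrin, and RT1-Da averaged 131 ± 6.19 CPM in Control and 1.56 ± 0.387 CPM in Maltodextrin (SD, n = 5 each). Cxcl13 averaged 16.1 ± 1.89 CPM in Control BLA and 0.81 ± 0.323 CPM in Maltodextrin BLA, against the 109 ± 7.68 CPM of Control venDG. The test of the difference between venDG and BLA called 1648 of 13123 genes as more positive in venDG (12.6%) and 1530 as more negative (11.7%), or 24.2% in either direction.

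Of 10 tested class II genes, 5 changed less in venDG than in BLA and 0 changed more, with a median difference of -1.14. Cd74 differed by -1.17 (SE 0.136, adjusted p = 4.61e-07), RT1-Da by -1.64 (adjusted p = 5.69e-08) and C3 by -0.78 (adjusted p = 0.000112). Mx1 differed by -2.54 (adjusted p = 5.48e-11), with 14.1 ± 2.01 CPM in Control BLA and 0.874 ± 0.112 CPM in Maltodextrin BLA. In the other direction, Cxcl13 differed by 5.39 (SE 0.419, adjusted p = 6.87e-10) and Kcnn4 by 2.27 (adjusted p = 0.000507). Fcnb (0.84, SE 0.938, adjusted p = 0.567), Plac8 (-0.31, SE 0.194, adjusted p = 0.263), C1qc (-0.00, SE 0.118, adjusted p = 0.989) and Ptprc (0.10, SE 0.167, adjusted p = 0.715) missed the threshold, which does not show that their changes were alike. Plac8 passed it without Maltodextrin replicate 1 (-0.59, adjusted p = 0.0311).

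The other genes named at the ends of this contrast were mostly low in venDG. Pih1d3, which helps assemble ciliary motors, differed by -4.90, Lamp3 by -4.48, Aldh1a7 by -3.36, the organic anion carrier Slco1a5 by -3.23 and Spef2, a sperm and cilia protein, by -3.20. Slco1a5, for one, had 3.31 ± 0.641 CPM in Control BLA and 0.484 ± 0.235 CPM in Maltodextrin BLA, and 5.63 ± 0.84 CPM in Control venDG and 8.45 ± 1.76 CPM in Maltodextrin venDG. Choroid plexus genes were called as more negative in 9 of 13 (median -1.18), and their part in the other differences was not tested. On the positive side, Figf, Smyd1 and Loxhd1 (3.50, 2.18 and 2.15) had at most 31 counts in Control venDG, and each lost its call when some single libraries were left out. The adjusted p reached 0.0821 for Figf without Control replicate 5, 0.123 for Smyd1 without Control replicate 4 and 0.107 for Loxhd1 without Control replicate 2.

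In the 8 regions other than venDG and BLA, Control means of Cd74 ran from 11.5 CPM in Raphe to 83.2 CPM in mPOA, where Maltodextrin averaged 76.8 ± 7.61 CPM. Control means of Cxcl13 in those regions ran from 0.27 CPM in Raphe to 3.84 CPM in LConly. Both lie below the Control values of venDG and BLA.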

How the data were processed

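Total RNA from pooled frozen punches was sequenced with a stranded kit, per the labels' protocols. The authors deposited 1 table of raw read counts for 17337 gene symbols, made with FastQC, STAR and HTSeq on rn6, per the submitters' processing notes. Neither tool versions nor HTSeq's strand setting were stated, so genes that overlap on opposite strands are uncertain. CPM (counts per 1000000) were computed from the deposited counts and each library's total. edgeR 4.0.16 (R 4.3.3) was fitted to the 30 venDG libraries with TMM scaling, its default low-count filter, group means, the quasi-likelihood F test and Benjamini-Hochberg adjustment over all genes tested. An SE is the log2 change divided by the square root of F. Differences between regions were tested as region by treatment terms on 20 libraries, with the treatment replicate as a block. DESeq2 1.42.0 was an alternative, beside other scaling, no filter, a replicate block, only the 10 libraries, and each library left out. Scripts were tested on simulated data.

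Promoter letters came from RefSeq's table of build GRCr8, and motifs were searched on both strands of 33469 promoters. Intervals and the 3-count limit cover counting error only. Named genes were, among genes called with a mean log2 CPM over 0, the 10 highest, the 10 lowest and the 5 of smallest p in each direction, the leading members of each list with up to 4 more by level or role, and the 5 highest and 5 lowest in each contrast between regions. Ciita, Klrk1, Zbp1, Cr2 and other genes below that level are list members. The compared groups and the lists were chosen with earlier results of these data known. A few list members are not reported here.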

Additional observations from a re-analysis of the deposited data

Results flagged for a closer look

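In 21 of 236 groups of 5 libraries, 1 library lay apart from the other 4 by Dixon's test, where chance gives about 1 group in 20. Values are CPM, with the range of the other 4 libraries after each.

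Among Control libraries, replicate 1 stood apart in Ciita at 1.26 (others 1.70 to 1.86) and in Tap1 at 6.62 (5.29 to 5.45). Replicate 2 did so in Fut7 at 4.0 (0.203 to 0.742), Enpp2 at 453 (398 to 413) and Ttr at 11100 (9520 to 9900). Replicate 3 did so in Mx1 at 41.6 (46.6 to 48.3), and replicate 5 in Lyve1 at 6.59 (4.30 to 4.78).

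Among Maltodextrin libraries, replicate 1 stood apart in C4b at 0.455 (0.104 to 0.198), Arhgdib at 38.1 (27.7 to 30.6), Spp1 at 5.09 (1.88 to 2.81) and Grn at 51.1 (42.7 to 44.0). Replicate 2 did so in Sdc1 at 0.988 (0.537 to 0.637). Replicate 3 did so in Slc25a2 at 2.5 (1.00 to 1.34), Ptprc at 4.48 (7.03 to 7.51) and Itgal at 0.104 (0.537 to 0.694), and replicate 4 in Ccl12 at 0.402 (0 to 0.0991). Replicate 5 had the most, namely B2m at 502 (587 to 610), P2ry12 at 5.85 (10 to 11), Cd6 at 0.595 (1.43 to 1.64), F5 at 19.7 (25.9 to 28.0) and Gfap at 949 (811 to 844).

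The difference Control minus Maltodextrin differed between venDG and dorDG in 1296 genes (edgeR, adjusted p under 0.05). The named ones were Ccl12 at 8.03, Cxcl13 at 7.62, Scin at 6.92, Fcnb at 6.34 and Kcnn4 at 4.76, and Rn5-8s at -2.45, Trh at -1.90, Ackr3 at -1.69, Crhbp at -1.40 and Syp at -1.20, on the log2 scale. It differed between venDG and BLA in 3178 genes. The named ones were Cxcl13 at 5.39, Figf at 3.50, Kcnn4 at 2.27, Smyd1 at 2.18 and Loxhd1 at 2.15, and Pih1d3 at -4.90, Lamp3 at -4.48, Aldh1a7 at -3.36, Slco1a5 at -3.23 and Spef2 at -3.20.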

How the results depend on the processing

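No named gene changed direction under the alternatives run. Of 118 named venDG genes, 101 were called, and over all 172 gene values, region differences included, 13 had a call that changed under some alternative; those lost by leaving out a library are given beside the results above. DESeq2 ended the calls of Fut7 (adjusted p = 0.0765) and, against BLA, of Smyd1 (0.0658) and Loxhd1 (0.111), the 10 libraries alone that of Fut7 (0.0757), and DESeq2's size factors that of Flt3 (0.0516). Genes higher in Control than in Maltodextrin numbered 1242, and 1918 with no filter, where 16925 genes were tested, 1432 were lower and the median log2 change was 0.0746. With DESeq2, 323 genes were more positive and 480 more negative in venDG than in dorDG, and 934 were more negative than in BLA; the cause was not tested. Leaving out each library gave 1069 to 1597 genes higher and 1076 to 1506 lower against Maltodextrin. Higher genes outnumbered lower ones without Control replicate 1 (1079 and 1076), 2 (1322 and 1288), 3 (1191 and 1180), 4 (1219 and 1209) or 5 (1098 and 1078), without Maltodextrin replicate 5 (1597 and 1506), with no filter and with only the 10 libraries (1653 and 1651). Leaving out each library gave 3114 to 3474 and 2632 to 2951 for Control against the 4 other groups, and 1920 to 2231 and 1681 to 1963 for Maltodextrin against them. Against dorDG it gave 397 to 631 and 474 to 891, with 483 without Control replicate 1 and 474 without Maltodextrin replicate 2. Against BLA it gave 1452 to 1612 and 1169 to 1503. Same-numbered Control and Maltodextrin libraries correlated by 0.0171 to 0.279, not all above 0.1, so the numbers were not taken to pair the 2 treatments, although 4 of 5 matched their own number best, a hint from the data. The block of the region tests is another one, joining regions of 1 treatment and replicate. With the replicate block, 1448 genes were higher and 1642 lower, and Flt3 was not called (adjusted p = 0.053). Without the replicate block, the differences from dorDG numbered 625 and 823, and those from BLA 1628 and 1582. Low counts limit what can be read of lymphocyte genes, of which none of the 13 B cell genes could be tested.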

Other observations

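Several other lists moved little or in both directions in venDG. Of 13 proliferation genes, Mcm5, a helicase subunit, and Kif11, a spindle motor, were higher in Control (log2 changes 1.36 and 1.01, adjusted p = 0.00283 and 0.0152), and Aurkb, a mitotic kinase, was lower (-0.65, adjusted p = 0.0124). Of 5 vessel adhesion genes, Icam1 was higher (0.54, adjusted p = 0.0302) and Vcam1 lower (-0.26, adjusted p = 0.0216). Of 8 reactive astrocyte genes, Gfap was higher and Vim lower (-0.23, adjusted p = 0.0045). Among 15 synaptic genes, the vesicle proteins Syn1 and Vamp2 were higher (254 ± 11.5 and 1373 ± 66.8 CPM in Control, 176 ± 8.69 and 1013 ± 74.8 CPM in Maltodextrin) and the scaffold Homer1 lower (92.2 ± 8.08 CPM in Control, 125 ± 6.56 CPM in Maltodextrin, log2 change -0.44, adjusted p = 1.45e-05). Against the mean of the 4 other venDG groups, Vamp2 was not called in Control (log2 difference 0.11, adjusted p = 0.1) and was lower in Maltodextrin (-0.33, adjusted p = 5.01e-05). Syn1 was higher in Control (0.28, adjusted p = 4.05e-06) and lower in Maltodextrin (-0.25, adjusted p = 0.000135). Desipramine averaged 293 CPM of Syn1 and 1740 CPM of Vamp2, above Control in both. All are from edgeR's quasi-likelihood test with adjustment over all 12071 genes.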
